A study of Homo sapiens with 19 samples.

Results

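A set of 2434 promoter sites at which the nuclear receptor ERRα was called in SKBr3 breast cancer cells after treatment with heregulin (HRG), and neither after vehicle nor after EGF, is described here. Overlapping peaks of the 3 SKBr3 lists (vehicle, EGF and HRG), with 1 shared bp as the minimum, were joined into 55998 sites. Of these, 13888 sites (24.8%) carried an HRG peak alone. A site was kept when the centre of its HRG peak lay within 1 kb of a transcription start of a protein-coding gene, which left 2434 of the 6141 HRG promoter peaks (39.6%). The sites were thus selected on the 3 SKBr3 peak calls, and those calls and the HRG scores, also where they order the sites, are given as a description only. Calls in 5 other lists and the sequence under the sites were not used to choose them.

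The study mapped ERRα by ChIP-seq in HER2-overexpressing breast cancer lines. SKBr3 and BT-474 cells were starved of serum for 24 h and then received PBS as vehicle, EGF or HRG for 90 min, with both growth factors at 100 μM as the labels state it. The pSKBr3 cells were the untreated parental line, and LRSKBr3 cells were their lapatinib-resistant derivative, kept in 2 μM lapatinib, an inhibitor of the EGFR and HER2 kinases. Each SKBr3, pSKBr3 and LRSKBr3 list came from 2 pooled ChIP libraries and 1 input library, and each BT-474 list from 1 ChIP library set against the input of vehicle-treated cells. Every condition therefore has 1 list, the spread between cultures cannot be seen, and no test of a treatment was made. Intervals are 95% Wilson intervals for shares and Newcombe intervals for differences between shares. Both cover counting error only, and sites of 1 list are not replicates of a condition. The lists hold no tag counts, so the depth of each library is unknown, and a site without a call may have been bound below the threshold. A larger change in occupancy and a deeper or more enriched HRG library cannot be told apart.

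ERRα is an orphan nuclear receptor that binds DNA as a monomer or dimer at an extended core word, the ERR response element (ERRE), and is known as a regulator of mitochondrial energy metabolism. HRG is a ligand of HER3 and HER4 and signals in such cells mainly through the HER2-HER3 pair to the PI3K-AKT and ERK cascades, whereas EGF binds EGFR. The ERK cascade acts on immediate early genes such as FOS and JUN, whose products form AP-1, a dimeric factor with its own DNA word. A peak at a promoter can mark direct binding of the receptor to its element or contact through other proteins, and these 2 kinds are not separated by ChIP-seq.

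The ERRE word TCAAGGTCA occurred within 100 bp of the peak centre at 22 of the 2434 sites, and the AP-1 word TGACTCA at 89, both strands being searched. Sites of high score with either word are shown first because they hold the elements against which the whole set is read. All sequences are the plus strand of GRCh37 (hg19), 5′ to 3′, with the word in capitals, so that a word on the minus strand appears as its reverse complement. Stretches that touch an annotated UTR are shortened to the word and its nearest bases. The first 5 carry the ERRE word. The words at DIPK1B and ACOT11 lay in introns of those genes, that of TMEM132A in a coding exon, that of CHRNE in a coding exon that also overlaps a UTR of C17orf107, and the fourth in an intron of MCEMP1, beside a start of the unnamed gene ENSG00000269711.
DIPK1B, chr9:139607569-139607697: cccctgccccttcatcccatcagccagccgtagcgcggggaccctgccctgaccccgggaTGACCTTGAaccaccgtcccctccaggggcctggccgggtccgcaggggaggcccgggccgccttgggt
ACOT11, chr1:55014485-55014613: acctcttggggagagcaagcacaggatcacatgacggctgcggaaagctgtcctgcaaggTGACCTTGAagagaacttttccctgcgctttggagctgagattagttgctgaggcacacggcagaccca
TMEM132A, chr11:60702773-60702901: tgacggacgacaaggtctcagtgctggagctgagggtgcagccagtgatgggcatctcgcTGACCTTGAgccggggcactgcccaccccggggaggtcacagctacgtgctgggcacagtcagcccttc
ENSG00000269711 and MCEMP1, chr19:7742899-7743027: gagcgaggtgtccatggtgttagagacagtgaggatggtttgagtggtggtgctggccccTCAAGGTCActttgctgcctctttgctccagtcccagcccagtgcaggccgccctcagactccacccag
CHRNE, chr17:4805929-4805957: ttcgtcagggTGACCTTGAggctgatggt

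The next 4 carry the AP-1 word. Those of SLC29A3 and ABT1 lay outside protein-coding transcripts, upstream of the start, and those of SEMA5B and ABR in introns.
SLC29A3, chr10:73078770-73078896: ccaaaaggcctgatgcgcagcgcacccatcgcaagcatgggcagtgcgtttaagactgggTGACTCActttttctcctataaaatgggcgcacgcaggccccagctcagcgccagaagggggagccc
SEMA5B, chr3:122694314-122694440: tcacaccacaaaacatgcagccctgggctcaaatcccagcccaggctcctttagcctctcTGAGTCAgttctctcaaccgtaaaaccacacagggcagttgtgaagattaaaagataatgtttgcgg
ABR, chr17:1018498-1018524: ccccagctgaTGACTCAcccatctcac
ABT1, chr6:26596688-26596814: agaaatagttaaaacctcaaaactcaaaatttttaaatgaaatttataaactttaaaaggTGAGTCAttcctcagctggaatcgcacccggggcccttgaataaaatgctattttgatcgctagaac

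The HRG list held a larger share of promoter peaks than the other SKBr3 lists and the BT-474 lists. Promoter peaks made up 16.5% of its 37195 peaks (16.1-16.9%), against 11.5% of the vehicle list and 10.9% of the EGF list. The corresponding shares were 9.63%, 6.34% and 6.26% in BT-474 cells on vehicle, EGF and HRG, 23.5% in pSKBr3 and 18.4% in LRSKBr3. Of the HRG promoter peaks, 2713 belonged to sites with both a vehicle and an EGF peak and are called common promoter peaks, and 491 to sites with an EGF but no vehicle peak. Promoter sites called on vehicle alone numbered 325 and those called on EGF alone 189. A further 11454 HRG-only peaks lay more than 1 kb from a start and are called distal.

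The HRG-only promoter sites were mostly weak to moderate peaks of the HRG list. The score deposited with a peak is −10 log10 of the P value given by MACS, so that 50 is the threshold. The median score was 97.5 (quartiles 68.8 and 153, highest 1584), at percentile 34.7 of the HRG list, where the percentile is the share of peaks with a lower score. Common promoter peaks had a median score of 450, at percentile 78.7, and distal HRG-only peaks a median of 82.8, at percentile 27.4. The sites were 1301 bp wide at the median, and 34 of them spanned 5 kb or more. These scores belong to the list that chose the sites.

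**Figure D1:**
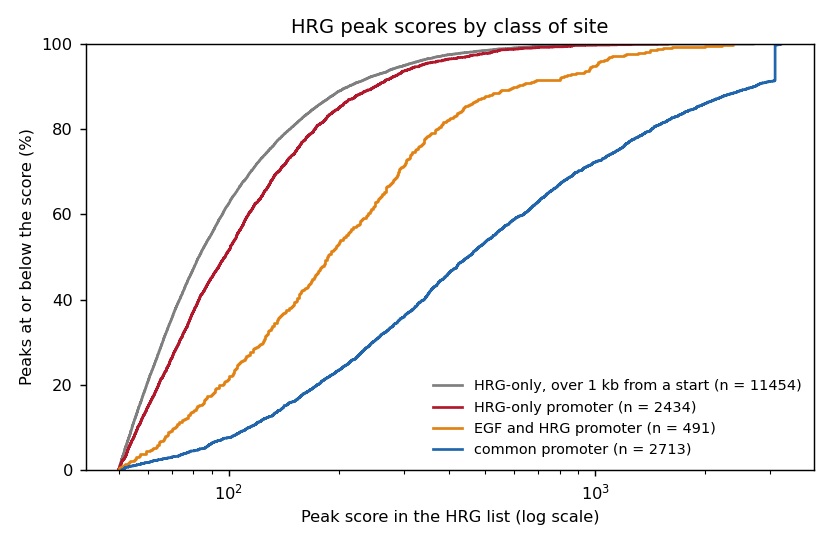
Cumulative share of peaks (y axis, %) by peak score in the HRG list (x axis, log scale) for 4 classes of HRG peaks. The curve of the 2434 HRG-only promoter peaks lies close to that of the 11454 distal HRG-only peaks, with medians of 97.5 and 82.8, and to the left of the 2713 common promoter peaks, whose median is 450.

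The sites sat close to the starts themselves. The median distance between peak centre and nearest start was 205 bp, and 1353 sites (55.6%) lay within 250 bp, against a median of 196 bp and 57.2% for common promoter peaks. Their GC content within 100 bp of the centre was 62.4% ± 8.76 (SD over 2434 sites), close to the 62.8% ± 12.3 around all 19807 gene starts. It was 59.3% ± 10.1 at common promoter peaks, 48.8% ± 10.2 at vehicle-only promoters, 46.7% ± 9.60 at EGF-only promoters and 49.3% ± 9.79 at distal HRG-only peaks. The sites thus resembled the bulk of gene starts in base composition, whereas promoters called on vehicle alone or EGF alone were poorer in GC. Most sites (2117) had the starts of 1 gene within 1 kb, 304 had those of 2 genes, 12 of 3 and 1 of 4. A pair of starts pointing away from each other was found at 9.57% of the sites (8.47-10.8%), compared with 13.8% of common promoter peaks and 13.2% of all gene starts.

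**Figure D2:**
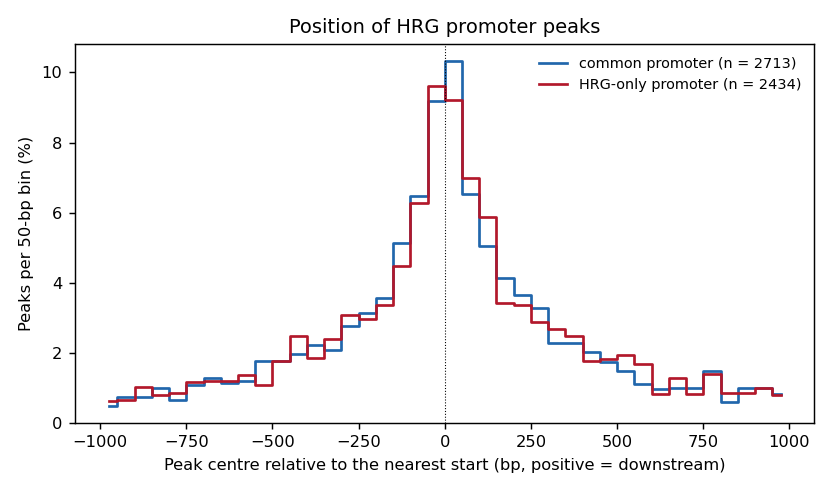
Share of peaks per 50-bp bin (y axis, %) by the distance of the peak centre from the nearest start (x axis, bp, positive values downstream) for the 2434 HRG-only and the 2713 common promoter peaks. Both distributions peak at the start, and the median distances are 205 bp and 196 bp.

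Most of the sites were not edge cases of a neighbouring control peak. The nearest vehicle or EGF peak was 15992 bp away at the median, and 1065 sites (43.8%) had none within 20 kb. Of all 19807 genes, 58.1% had the centre of such a peak within 20 kb of a start. Distances of this order were thus not particular to the sites, and the rule had removed overlapping peaks beforehand. A vehicle or EGF peak lay within 500 bp of 102 sites and within 1 kb of 189 (7.76%). At the limit of the rule, the peak at CLDN1, which encodes a tight junction protein, missed an EGF peak by 1 bp and was included, whereas that at EZR, which encodes the membrane linker ezrin, overlapped one by 9 bp and was not. Likewise the site of ORAI3, which encodes a calcium channel subunit, lay 1000 bp from its start and was included, and that of LTBP4, which encodes a TGF-β binding protein, lay 1001 bp away and was not.

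The sites lay at 2621 of the 19807 protein-coding genes (13.2%). Of these genes, 297 (11.3%) also had a vehicle or EGF peak within 1 kb of a start, through a second start or a second peak, against 24.0% of all genes. Within 20 kb, 1586 (60.5%) had one, against 58.1% of all genes. The rule left out HRG peaks that overlapped a vehicle or EGF peak. The lower share within 1 kb thus follows at least in part from the rule and says nothing further about these genes. The genes were unevenly spread over the chromosomes. The share was highest on chromosome 19, with 319 of 1436 genes (22.2%, 20.1-24.4%), followed by chromosome 7 with 18.0%, chromosome 14 with 17.1% and chromosome 16 with 16.5%. Shares were lowest on chromosome X (4.99%), on chromosome 18 (8 of 262 genes, 3.05%) and on chromosome Y (0 of 46 genes, upper bound 7.71%). Common promoter peaks, for comparison, reached 14.9% of the genes of chromosome 19 and 12.6% of those of chromosome 18. They too were few on chromosome X (6.61%), and the vehicle-only promoters had their highest share on chromosome 7 (4.67%). Copy number differs along the genome of these lines and was not analysed here, so its part in this distribution was not tested.

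In pSKBr3 and LRSKBr3 cells, whose labels name no growth factor, many of the sites were called as well. Of the 2434 sites, 1683 (69.1%, 67.3-70.9%) were called in LRSKBr3 and 1110 (45.6%, 43.6-47.6%) in pSKBr3. The same lists had a peak at 36.5% and 26.3% of all gene start windows of the sites' median width, and at 11.4% and 4.37% of the 13059 gene starts that no SKBr3 list reached. Distal HRG-only peaks were called less often, at 33.7% in LRSKBr3 and 12.8% in pSKBr3, which put the promoter sites 35.5 points (33.4-37.5) and 32.8 points (30.7-34.8) above them. Common promoter peaks were nearly always called, at 98.0% and 91.2%. Promoters called on vehicle alone were found in LRSKBr3 at 62.5% and in pSKBr3 at 33.2%, and the HRG-only promoters exceeded them by 6.68 points (1.26-12.4) and 12.4 points (6.73-17.7). The promoters called on vehicle alone were mostly poor in GC, and the order changed within ranges of GC content. At a GC content below 59.2% the HRG-only promoters were called at 62.3% (58.9-65.7%) in LRSKBr3 and 32.8% (29.6-36.2%) in pSKBr3, and the 272 vehicle-only promoters at 57.4% (51.4-63.1%) and 25.7% (20.9-31.2%). Between 59.2% and 66.7% the vehicle-only promoters were higher, at 88.9% (74.7-95.6%) and 69.4% (53.1-82.0%) of 36, against 66.8% and 42.2% of the HRG-only promoters. From 66.7% upward the vehicle-only promoters were at 88.2% (65.7-96.7%) and 76.5% (52.7-90.4%) of 17, against 78.0% and 61.2%. How any of these differences compares with the spread between cultures is not known. The labels state no serum starvation for pSKBr3 and LRSKBr3 cells, and their lists differ in size, with 22539 and 39777 peaks.

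**Figure D3:**
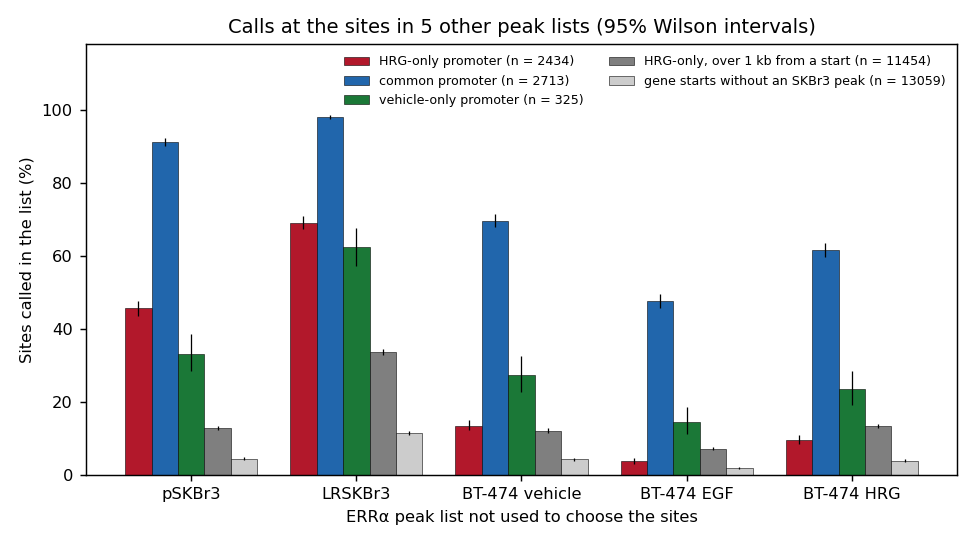
Share of sites with an overlapping peak (y axis, %) in each of the 5 lists that were not used to choose the sites (x axis), for 4 classes of sites and for gene starts without an SKBr3 peak. Bars are shares and lines 95% Wilson intervals for counting error. HRG-only promoters reach 69.1% in LRSKBr3 and 45.6% in pSKBr3 but 13.5%, 3.70% and 9.61% in the BT-474 lists.

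In BT-474 cells the sites were seldom called, on HRG or otherwise. The BT-474 HRG list held 234 of them (9.61%, 8.51-10.8%), the vehicle list 329 (13.5%, 12.2-14.9%) and the EGF list 90 (3.70%, 3.02-4.52%). The background over all gene start windows was 13.6%, 16.5% and 8.64%, and each share was below it. For the vehicle list this order depended on which sites were taken, since 16.8% of the sites with an HRG score of at least 100 and 18.3% of those poorest in GC were called. The shares exceeded those of gene starts without any SKBr3 peak, which were 3.84%, 4.22% and 1.81%. Common promoter peaks were called in the same lists at 61.6%, 69.6% and 47.6%, and vehicle-only promoters at 23.4%, 27.4% and 14.5%. A call on HRG alone within the BT-474 lists was found at 72 sites (2.96%), and a call on vehicle alone at 155 (6.37%). Over all gene starts these shares were 2.10% and 4.58%, in much the same proportion, and over common promoter peaks 3.28% and 10.6%.

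Calls in 4 of the 5 other lists were more frequent at sites of higher HRG score. The sites were cut at the quartiles of score into 4 ranges. From the lowest to the highest range, the share called in LRSKBr3 went through 52.5%, 63.9%, 74.2% and 86.0%, and that in pSKBr3 through 28.1%, 36.6%, 49.5% and 68.1%. The BT-474 HRG list gave 5.76% in the lowest and 13.3% in the highest range, and the BT-474 vehicle list 8.55% and 20.2%. The BT-474 EGF list showed no such order, with 3.78%, 2.79%, 3.45% and 4.76% and overlapping intervals. Within these ranges the promoter sites were above the distal HRG-only peaks in both SKBr3-derived lists. In the highest range, 31.1% of distal peaks (29.2-33.1%) were called in pSKBr3 and 61.6% (59.5-63.6%) in LRSKBr3. In the lowest range these shares were 5.66% and 20.7%. In the BT-474 HRG list the distal peaks were higher in each of the 4 ranges, from 10.8% in the lowest to 18.2% in the highest. In the BT-474 vehicle list both classes were close, with 8.91% of the distal peaks in the lowest range and 17.2% in the highest. Common promoter peaks were above the HRG-only promoters in every range, for example 66.7% (55.6-76.1%) against 28.1% (24.7-31.8%) for pSKBr3 in the lowest one. Promoters shared by EGF and HRG were called more often than the HRG-only promoters over all scores, at 54.6% in pSKBr3, 77.6% in LRSKBr3 and 27.5% in BT-474 HRG. In the highest range their shares in the SKBr3-derived lists were close to those of the HRG-only promoters, at 64.3% (58.6-69.5%) against 68.1% (64.3-71.7%) in pSKBr3 and at 84.9% against 86.0% in LRSKBr3. In the BT-474 HRG list they stayed apart, at 26.5% (21.7-31.8%) against 13.3% (10.8-16.2%).

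GC content ordered the calls as well. The sites were divided into 3 ranges at GC contents of 59.2% and 66.7%, and the share called in pSKBr3 went from 32.8% to 42.2% and 61.2%, and that in LRSKBr3 from 62.3% to 66.8% and 78.0%. The BT-474 HRG list changed the other way, from 13.5% to 7.72% and 7.79%. In the GC-richest range the distal HRG-only peaks were called at 39.8% in pSKBr3 (34.9-44.9%) and 60.8% in LRSKBr3 (55.7-65.7%), below the promoter sites of that range.

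The pSKBr3 and LRSKBr3 lists split the sites into 4 groups. Both lists held 1016 sites (41.7%), LRSKBr3 alone 667 (27.4%), pSKBr3 alone 94 (3.86%) and neither 657 (27.0%). Over all gene starts the 4 shares were 25.0%, 11.5%, 1.32% and 62.2%, so that LRSKBr3 alone was more frequent than pSKBr3 alone there too, the LRSKBr3 list being the larger. The sites called in both had a median HRG score of 126 and a GC content of 64.5%, and those called in neither a median score of 77.0 and a GC content of 59.9%. The AP-1 word lay at 16 of the former (1.57%) and at 41 of the latter (6.24%). All 5 other lists held 31 sites (1.27%), and 598 (24.6%) were in none of them, against 5.96% and 58.8% of all gene starts. Seen from the other side, 84.7% of the 5286 pSKBr3 promoter peaks overlapped an HRG peak (83.7-85.6%), while 59.9% overlapped a vehicle peak and 56.2% an EGF peak. HRG was the only SKBr3 call at 22.9% of them, vehicle the only one at 2.12% and EGF at 0.624%. The classes themselves differed in size, with 2434, 325 and 189 promoter sites. In the BT-474 lists HRG was the only SKBr3 call at 9.68% of promoter peaks on vehicle, 3.94% on EGF and 7.16% on HRG. For the 7307 LRSKBr3 promoter peaks the overlaps were 72.6% with HRG, 48.4% with vehicle and 45.7% with EGF, and 23.7% overlapped HRG alone.

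The ERRE word was rare under the sites. It was present at 0.904% of them (0.598-1.36%), compared with 2.58% of common promoter peaks (2.05-3.25%), 3.91% of distal HRG-only peaks (3.57-4.28%) and 0.121% of windows around all gene starts (0.0814-0.180%). The difference from common promoters was −1.68 points (−2.41 to −0.972) and that from all gene starts 0.783 points (0.471-1.25). The shorter word AAGGTCA, which is contained in the ERRE, was found at 6.04% of the sites, 12.9% of common promoters, 16.3% of distal peaks and 2.06% of gene starts. The HRG-only promoters thus stood between gene starts in general and the common promoters for both words. The ERRE share also differed with base composition. Among the sites the ERRE share was 1.79% in the GC-poorest range, 0.724% in the middle and 0.243% in the GC-richest, while among common promoters in the same ranges it was 4.14%, 1.30% and 1.27%. Since a word of fixed letters misses the variants a receptor can bind, absence of the word says nothing about binding.

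The AP-1 word was present at 3.66% of the sites (2.98-4.48%). It was present at 3.21% of common promoter peaks, a difference of 0.450 points that counting error covers (−0.546 to 1.47), at 8.63% of distal HRG-only peaks and at 2.38% of gene starts. In the GC-poorest range it was at 6.64% of the sites (5.10-8.61%) and 4.14% of common promoters (3.16-5.40%), in the middle range at 3.50% and 3.51%, and in the GC-richest at 0.973% and 1.27%. Vehicle-only promoters held it at 4 of 325 (1.23%), and the sites exceeded them by 2.43 points (0.418-3.54). Promoters shared by EGF and HRG held it at 10.2% (7.81-13.2%). Promoters called on EGF alone held it at 37 of 189 (19.6%, 14.5-25.8%), 15.9 points above the HRG-only promoters. The words of general promoter factors differed widely in share, and most were less frequent at the sites than at gene starts. SP1, a zinc finger factor of GC-rich promoters, had its word GGGCGG at 41.1% of the sites (39.1-43.1%), against 32% of common promoters, 7.81% of distal HRG-only peaks and 48.2% of gene starts. ETS factors, which include targets of ERK, had the word CCGGAAG at 8.34%, against 10.1%, 1.13% and 10.4%. The CCAAT word of NF-Y was found at 16.8%, the E-box CACGTG at 4.97%, the E2F word GGCGGGAA at 3.08%, the YY1 word AAGATGGC at 1.85%, the NRF1 word GCATGCGC at 1.77%, the ZNF143 word ACTACAA at 1.44% and the CRE word TGACGTCA at 0.904%. For these 7 the shares at all gene starts were 25.5%, 5.80%, 2.70%, 3.21%, 2.99%, 1.86% and 1.90%. Of these 7 words, E2F was the only one more frequent at the sites than at gene starts, by 0.385 points, within counting error (−0.274 to 1.18).

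**Figure D4:**
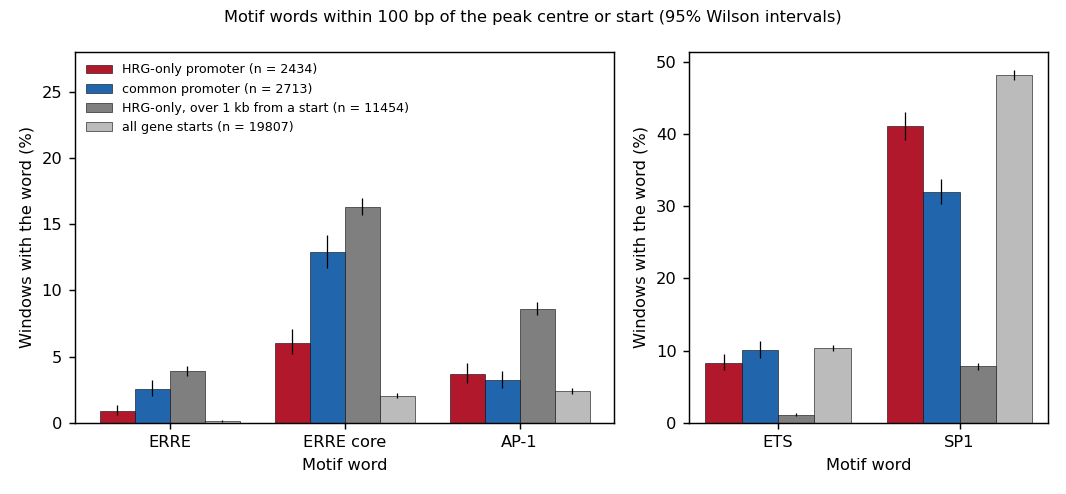
Share of windows with a motif word (y axis, %) within 100 bp of the peak centre, or of the start for all gene starts, for the ERRE, its core word AAGGTCA and AP-1 (left) and for ETS and SP1 (right). Bars are shares and lines 95% Wilson intervals. The ERRE is present at 0.904% of HRG-only promoters, 2.58% of common promoters and 3.91% of distal HRG-only peaks, whereas the SP1 word is present at 41.1%, 32% and 7.81%.

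The 10 sites of highest HRG score were all called in both SKBr3-derived lists. The highest was at ACSS2, which encodes an enzyme that makes acetyl-CoA from acetate. It spanned chr20:33458777-33466487 with its centre 113 bp upstream of the start and a score of 1583.62, at percentile 93.8 of the HRG list. It was at percentile 95.8 of the pSKBr3 list and 93.2 of the LRSKBr3 list, and in none of the BT-474 lists. The peak at WWP1 (chr8:87349574-87359939), which encodes a ubiquitin ligase, had a score of 1473.25 and was called in all 5 other lists, at percentiles from 86.9 to 97.3. It differed in this from most of the set.

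Of these 10 sites, 5 were on chromosome 17 and 3 on chromosome 20. CASKIN2, a scaffold protein gene, had a site at chr17:73507586-73514361 in an intron 368 bp downstream of the start (score 1254.46) that was at percentile 83.8 in pSKBr3 and 74.5 in LRSKBr3. STX16, a syntaxin of Golgi transport, had one at chr20:57225374-57228913 whose centre lay in a coding exon (score 1251.98). That site was at percentile 97.6 in pSKBr3 and 64.8 in LRSKBr3. SLC16A5, a monocarboxylate transporter gene, had a peak of 9417 bp at chr17:73081205-73090621 (score 1147.3) that was called in all 5 other lists, and a vehicle peak lay only 1158 bp away. MEST, an imprinted gene, had one centred on a UTR at chr7:130122795-130129756 (score 1091.93) that was called in each list but BT-474 HRG. LLGL2, a cell polarity gene, and NUFIP2, which encodes an RNA-binding protein, had scores of 1003.58 and 937.13 and were called in BT-474 on vehicle and on HRG. TRIB3, a pseudokinase that binds AKT, and CYB561, a transmembrane cytochrome gene, had scores of 872.01 and 869.2 and were called in BT-474 on vehicle only.

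The sites with an ERRE word had lower scores than these. DIPK1B, which encodes a protein kinase-like protein of the endoplasmic reticulum, had the highest, 356.44, and ACOT11, an acyl-CoA thioesterase gene, followed with 169.71. Both were called in pSKBr3 and LRSKBr3, at percentiles 47.1 and 54.3 for DIPK1B and 42.3 and 69.3 for ACOT11. The sites at TMEM132A (score 137.81), ENSG00000269711 and MCEMP1 (128.55) and CHRNE (116.25), the last a gene of the muscle acetylcholine receptor, were called in LRSKBr3 alone, at percentiles 28.4, 22.4 and 18.6. None of the 5 was in a BT-474 list.

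The sites with an AP-1 word were more mixed. PSAP, which encodes the precursor of the saposins of lysosomal lipid breakdown, had a site at chr10:73608830-73614661 with a score of 572.33, called in each other list except BT-474 EGF. SLC29A3, a nucleoside transporter gene, had a score of 530.58 and was called in LRSKBr3 alone. SEMA5B, a semaphorin gene, and ABR, which encodes a regulator of small GTPases, had scores of 316.78 and 313.82 and were called in neither SKBr3-derived list. Both were in the BT-474 vehicle list, at percentiles 7.40 and 8.78, and ABR also in the BT-474 HRG list, at percentile 37. ABT1, a gene of ribosomal RNA processing and basal transcription, had a score of 311.15 and was at percentile 91.5 in pSKBr3 and 81.0 in LRSKBr3.

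Some strong sites were seen in 1 SKBr3-derived list or in no other list. VASP, which encodes an actin regulator, had a site at chr19:46008290-46011107 with a score of 864.81 that was called in LRSKBr3 at percentile 67.6 and not in pSKBr3. It was also in the BT-474 vehicle list, at percentile 65.6. An EGF peak lay 258 bp from it. CATIP (853.44), an actin-related gene, ITGB2 (772.33), an integrin subunit of leukocytes, and CATSPERG (547.84), which encodes a subunit of a sperm calcium channel, were called in LRSKBr3 alone, at percentiles 66.6, 55.4 and 39.3 of its list. Among sites in none of the other 5 lists, the highest scores were at FBXO46 (629.04), an F-box gene, NECTIN2 (517.87), a cell adhesion gene, CD63 (492.77), a tetraspanin gene, CYP1B1 (359.22), which encodes a cytochrome P450 that oxidises oestrogens, and VSIG10L (332.1). CD63 was close to the limit of the rule, with an EGF peak 22 bp away.

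HRG alone among the BT-474 lists was found at a few strong sites. YWHAG, which encodes a 14-3-3 protein, had a site at chr7:75987080-75990862 with a score of 529.5 that was also at percentile 86.1 in pSKBr3 and 82.7 in LRSKBr3 but only 5.28 in BT-474 HRG. KRT8, a keratin of simple epithelia, had one at chr12:53296970-53299678 with a score of 382.16, at percentile 94.9 in LRSKBr3 and 2.65 in BT-474 HRG. FAM168B (389.0) and PTPN4 (367.29), a tyrosine phosphatase gene, were at percentiles 8.36 and 8.08 of the BT-474 HRG list. NPAS1 (371.91), which encodes a neuronal transcription factor, was at percentile 43.5 there and in neither SKBr3-derived list. In 4 of these 5 the BT-474 call was thus near the bottom of its list.

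Gene lists showed which functions held the sites, read against the 13.2% of all protein-coding genes. The immediate early genes, which respond to growth factors within minutes, had the highest share, with 9 of 28 (32.1%, 17.9-50.7%). A common promoter peak was present at 2 of the 28. The rule leaves more genes open to an HRG-only site where few have a common peak, so this rank depends in part on the rule. Within 500 bp of a start the list was at 21.4%, below proteasome subunits (23.1%) and the cyclin list (22.6%). JUN, a subunit of AP-1, had the strongest site of the immediate early genes (chr1:59248163-59252076, score 460.85, percentile 79.1), 400 bp upstream of its start. JUN was called in pSKBr3 at percentile 51.6 and LRSKBr3 at 66.1. FOS, its partner, had one at chr14:75743836-75746012, 605 bp upstream of the start (score 145.46), called in LRSKBr3 at percentile 23.6 and not in pSKBr3. JUNB (score 137.67) and FOSL2 (62.88), also AP-1 subunits, had sites with a vehicle peak at 317 bp and an EGF peak at 321 bp, respectively. The others were IER2 (167.98), the matrix protein gene CCN1 (148.7), with an EGF peak 468 bp away, ZFP36 (117.38), whose product destabilises mRNA, the survival gene MCL1 (105.59) and the nuclear receptor gene NR4A3 (52.7). Thus 3 of the 9 had a vehicle or EGF peak within 500 bp, compared with 4.19% of all sites. Of the 9, 8 were called in LRSKBr3, 3 in pSKBr3 and 1, MCL1, in the BT-474 HRG list. These counts and those of the lists that follow stand beside 69.1%, 45.6% and 9.61% of all 2434 sites, and a difference from them was not tested.

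Growth factor signalling genes had sites both in the pathway and among its inhibitors. Shares of these lists ran from 9.09% to 27.6%, against 13.2% of all genes. The PI3K, AKT and mTOR list had 8 of 29 (27.6%, 14.7-45.7%). EIF4EBP2, a translation repressor inhibited by mTOR, had the strongest (chr10:72163299-72166489, score 517.88) and was called in all 5 other lists. The kinase subunit gene PIK3CD (192.03), the repressor EIF4EBP1 (157.97), TSC2 (124.4) and its GTPase target RHEB (104.68), RICTOR (106.01) of the second mTOR complex and the kinase AKT2 (98.31) were also among them. Of the 8, 7 were called in LRSKBr3 and 4 in pSKBr3. Feedback inhibitors had 7 of 28 (25.0%, 12.7-43.4%). These were SPRED2 (348.08), SPRED3 (84.16) and SPRY1 (244.32), which restrain the ERK pathway, the cytokine signalling inhibitors SOCS2 (294.04) and SOCS3 (61.7), the phosphatase DUSP9 (151.34) and ERRFI1 (55.96), an inhibitor of ERBB kinases. The interval of this list reached below the value for all genes. Of the ERBB receptors and ligands, 2 of 15 (13.3%) had a site, the ligand BTC (131.36) and ERBB3 (121.58), which encodes the HRG receptor HER3. Both were called in LRSKBr3 and not in pSKBr3. The RAS to ERK cascade had 2 of 22 (9.09%), GRB2 and HRAS.

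**Figure D5:**
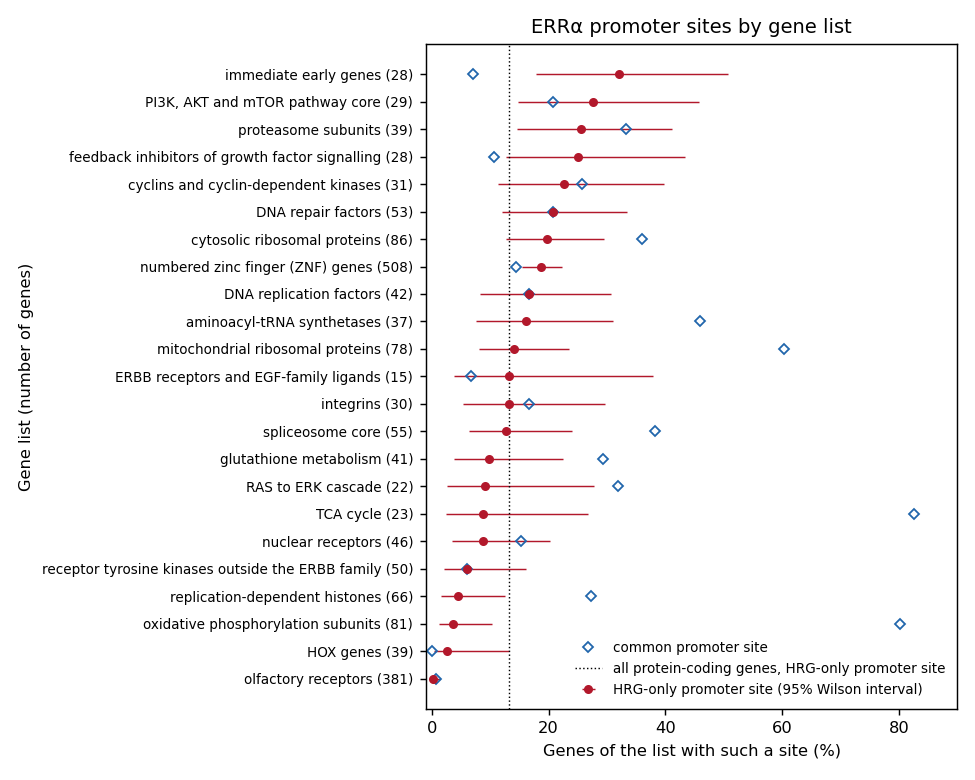
Share of the genes of each of 23 lists (y axis, list size in brackets) with an HRG-only promoter site (red points, 95% Wilson intervals) and with a common promoter peak (blue diamonds), in % (x axis). The dotted line marks the 13.2% of all protein-coding genes with an HRG-only promoter site, and the immediate early genes are at 32.1% whereas oxidative phosphorylation subunits are at 3.70%.

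The promoters of the mitochondrial lists were mostly called on vehicle and EGF already. A common promoter peak was present at 15.4% of all protein-coding genes (3041 of 19807). Of 81 subunits of oxidative phosphorylation, 65 (80.2%) had a common promoter peak and 3 (3.70%, 1.27-10.3%) an HRG-only site. These were the ATP synthase genes ATP5F1D (257.7) and ATP5ME (164.86) and the complex I gene NDUFB10 (157.02), each called in pSKBr3 and LRSKBr3. The TCA cycle list had a common promoter peak at 19 of 23 genes and an HRG-only site at 2, IDH2 (174.0) and PDHB (142.8). Mitochondrial ribosomal proteins had 47 of 78 and 11 of 78 (14.1%), MRPL23 (541.41) and MRPL20 (523.73) being the strongest. A gene with a common peak can have an HRG-only site only through another start or another peak, so that a low share among these genes follows in part from the rule. Common promoter peaks were also frequent in other lists, at 45.9% of aminoacyl-tRNA synthetases, 38.2% of the spliceosome list, 36% of cytosolic ribosomal proteins, 33.3% of proteasome subunits and 31.8% of the RAS to ERK cascade.

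Housekeeping and cell cycle lists lay around or above the value for all genes. Proteasome subunits had 10 of 39 (25.6%, 14.6-41.1%), with PSMD4 (266.08), PSMC5 (254.26) and PSMD12 (205.67) the strongest, and 9 of the 10 were called in LRSKBr3. Cytosolic ribosomal proteins had 17 of 86 (19.8%, 12.7-29.4%), led by RPL38 (385.27), with 16 called in LRSKBr3 and 12 in pSKBr3. Cyclins, their kinases and inhibitors had 7 of 31 (22.6%, 11.4-39.8%), namely the kinases CDK4 (148.56) and CDK8 (103.85), cyclin CCND3 (86.18) and the inhibitors CDKN2B (111.24), CDKN1A (104.84), CDKN2A (84.68) and CDKN2D (82.9). DNA repair factors had 11 of 53 (20.8%, 12-33.5%), led by PALB2 (219.4), and replication factors 7 of 42 (16.7%), led by the clamp loader gene RFC2 (321.45) and the helicase gene MCM7 (286.43). Aminoacyl-tRNA synthetases had 6 of 37 and the spliceosome list 7 of 55. The numbered ZNF genes, many of them clustered on chromosome 19, had 95 of 508 (18.7%, 15.5-22.3%), led by ZNF3 (820.16) and ZNF529 (762.65). Among all genes of chromosome 19 the share was 22.2%.

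The other lists were near or below the value for all genes. Integrins had 4 of 30, which were ITGB2 (772.33), ITGAV (209.89), ITGA5 (80.6) and ITGA3 (55.86). Glutathione metabolism had 4 of 41, led by GSTZ1 (250.42), and nuclear receptors 4 of 46. Receptor tyrosine kinases outside the ERBB family had 3 of 50, led by EPHB4 (206.02), and replication-dependent histones 3 of 66. HOX genes had 1 of 39, HOXA11 (52.33), and olfactory receptors 1 of 381 (0.262%, 0.0463-1.47%). Of the 23 lists, immediate early genes, the PI3K, AKT and mTOR list, proteasome subunits and the ZNF genes had intervals wholly above 13.2%, and those of oxidative phosphorylation subunits, replication-dependent histones and olfactory receptors lay wholly below it. The interval of the HOX genes ended at 13.2%. The intervals were not adjusted for the number of lists, which were chosen with earlier results of these data known. They treat genes as independent, although neighbours such as ZNF146 and ZNF565 share 1 site. They are therefore a description and no test of a list. With starts within 500 bp, where 10.5% of all genes had a site, the immediate early genes (21.4%, 10.2-39.5%) and the PI3K, AKT and mTOR list (17.2%, 7.60-34.5%) no longer lay wholly above that value, whereas cytosolic ribosomal proteins (18.6%, 11.8-28.1%) and the cyclin list (22.6%, 11.4-39.8%) then did. With an HRG score of at least 100, where 6.68% of all genes had a site, oxidative phosphorylation subunits (1.27-10.3%) and replication-dependent histones (0.268-8.10%) no longer lay wholly below it.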

How the data were processed

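ERRα ChIP-seq data of 19 samples were analysed from 8 deposited peak lists. The authors aligned reads to hg19 with BWA 0.5.9. Peak calling by MACS used a P limit of 1e-05, on pooled libraries where a condition had 2. The header lines of the SKBr3 growth factor lists name FindPeaks although their peaks carry MACS names. The score deposited by the authors is −10 log10 of the P value, it depends on depth, and it was ranked within its own list. Alternatives that apply 1 score limit to several lists set equal P limits, not equal depth. Of the lists' columns, the position and this score were used.

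SKBr3 peaks were merged by 1 bp overlap and classed by the lists they came from. Starts were those of protein-coding transcripts of 19807 genes in the GENCODE annotation on GRCh37, the build of the lists. A site was called in another list when at least 1 bp overlapped. All positions count from 1. Motif words were searched on both strands within 100 bp of the centre, and the words and 23 gene lists were chosen by hand. Background windows of 1301 bp lay around 1 outermost start per gene. The members and lists were chosen with earlier results of these data known. Named sites are the 10 highest scores, the 5 highest with an ERRE word, with an AP-1 word, in none of the other 5 lists, on HRG only in BT-474, and in LRSKBr3 without pSKBr3. Up to 4 genes of highest score per gene list were named, and all genes of the lists for immediate early genes, signalling, cyclins and integrins, which were named after their values were seen. A few named genes and 1 sequence are not reported here. The scripts used Python with pysam and were tested on simulated data. Gene lists, overlap, score and distance limits, window and list size were varied.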

Additional observations from a re-analysis of the deposited data

How the results depend on the processing

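No paired analysis was possible because the replicate libraries were pooled into 1 list per condition and no result came from a test. For the same reason no library could be left out. The number of sites fell from 2434 to 1530 with an HRG score of at least 80, to 1179 at 100 and to 1353 within 250 bp of a start, and the number of genes from 2621 to 1694, 1324 and 1459. It was 1804 with all 3 lists at 100 and 1983 with lists of equal size. The other overlap and start rules gave between 1822 and 2629 sites, and removal of chromosome Y none fewer. With an HRG score of at least 100, calls were 59.2% in pSKBr3, 80.2% in LRSKBr3, 16.8% in BT-474 on vehicle and 12.1% on HRG. With the other list at 100 they were 27.5%, 49.8%, 6.74% and 4.85%, and 1.68% on EGF. With centres within 500 bp they were 41.0%, 59.8%, 7.60% and 3.78%, and 1.85% on EGF. Within 500 bp of a start they were 49.5% in pSKBr3 and 72.4% in LRSKBr3. The ERRE share was 1.36% within 250 bp of the centre, where gene starts gave 0.364%, and 2.38% over whole peaks. It was 0.509% at an HRG score of at least 100 and 0.522% within 500 bp of a start. The AP-1 share was 7.81% within 250 bp of the centre, where gene starts gave 5.47%, and 20.4% over whole peaks, as longer windows hold more words. The order of LRSKBr3 over pSKBr3 and of both over BT-474 held under each of these 4 alternatives. With an HRG score of at least 100, immediate early genes with a site numbered 7 of 28 and oxidative phosphorylation subunits 3 of 81, against 6.68% of all genes. Within 500 bp of a start they numbered 6 and 3, against 10.5%. The interval of the first list then included the value for all genes, as that of the second did under the score limit.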
